A study of Mus musculus with 6 samples.

Results

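Zinc finger genes of the Zfp series were measured in muscle stem cells of mice by RNA sequencing. The set held every mouse gene whose symbol is Zfp followed by a number and at most 1 lower-case letter, and whose raw counts summed over the 6 libraries reached 100. Zfp42 was left out by rule and had a summed count of 3. Of 400 such genes in the table of 55487 genes, 202 belonged to the set. They were chosen by their summed count, which takes both groups together, and not by the difference between the groups. Just inside the limit lay Zfp523 with 100 counts and Zfp444 with 102, and just outside it lay Zfp59 with 99 and Zfp825 with 98. A summed count can be reached through a single group. Zfp37 held 49 counts in control libraries and 292 in knockout libraries, and 10 other members held fewer than 50 counts in the knockout libraries.

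The 6 libraries form groups of 3, which were compared. The knockout (KO) mice carried the genotype label KO for Setdb1 and were given tamoxifen. The control mice were labelled WT and were given oil. All mice were 10 weeks old, and the cells were taken 60 h after cardiotoxin, a venom toxin that destroys muscle fibres and sets off regeneration. Genotype and tamoxifen changed together and cannot be told apart. The labels call the libraries biological replicates and do not say how Setdb1 was deleted, which exon was removed, or whether each library came from a single mouse or a pool. P-values therefore measure the spread between these libraries.

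Zfp is the mouse name for proteins with zinc fingers, most of which hold a zinc ion between a pair of cysteines and a pair of histidines and read a few bases of DNA. Many of them begin with a KRAB domain. It binds TRIM28 (KAP1), which brings in SETDB1, an enzyme that trimethylates lysine 9 of histone H3, and such proteins are known for silencing retroelements in the mouse. KRAB zinc finger genes lie in clusters of near copies on a few chromosomes, and the clusters themselves are known to carry the same histone mark at their finger exons. Not every Zfp gene is of this kind. Others encode general transcription factors, RNA-binding proteins or ubiquitin ligases.

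Libraries held 4052569 to 5690844 counts, and a single ribosomal RNA gene took 28.6% to 38.4% of them. Levels are given as CPM, the read counts scaled to a common library size. Setdb1 was at 16.5, 12.7 and 14.7 CPM in KO libraries, against 34.9, 40.5 and 32.1 CPM in control libraries (log2 fold change -1.30, SE 0.16). All 9 satellite cell markers were detected and tested. Myod1 was higher in KO cells, and the other 8 markers were not called. Summed neutrophil markers (10 listed, all with counts) ran from 2.39 to 933 CPM in KO libraries and from 2.71 to 2295 CPM in control libraries, the highest in control library 3. Summed markers of fibroblasts (8 listed) ran from 1183 to 1748 CPM in KO libraries and from 570 to 1328 CPM in control libraries, and those of macrophages (8) from 10.6 to 38.8 and from 9.60 to 94.6 CPM. Mural markers (5 listed) summed to at most 31.0 CPM and endothelial markers (5) to at most 11.97 CPM in any library. Those of Schwann cells (4) stayed at or below 4.26 CPM. In bulk samples fewer cells of a type and less RNA per cell cannot be told apart.

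In total, 7 Zfp genes were higher in Setdb1 KO cells and none was lower. They were Zfp37, Zfp955a, Zfp958, Zfp955b, Zfp809, Zfp52 and Zfp110, with increases from 1.76-fold to 6.5-fold. All 202 members passed the filter on low counts, and a member was called at an adjusted p under 0.05 (edgeR quasi-likelihood test, Benjamini-Hochberg adjustment over all 11224 genes tested). Of all genes tested, 2.22% were higher in KO cells by this rule and 0.615% lower, so the 3.47% of members called higher was near the share among all genes. Counting either direction, 2.83% of all genes were called. Before adjustment, edgeR gave a p under 0.05 to 15 members that were higher and 14 that were lower, where all genes gave 10.1% and 7.64%. DESeq2 called 4 members higher (1.01% of all genes it tested) and 0 lower (0.254%), and limma-voom called 7 higher (2.17%) and 0 lower (0.552%).

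The sequence upstream of the risen genes is shown first, since it bears on how alike they are. RefSeq promoter windows (GRCm38.p6, 250 bases before to 50 after the start) were found for 162 of the 202 members and for all 7 risen genes. Zfp955a and Zfp955b lie head to head on chromosome 17, with their starts 34.4 kb apart, and their windows were identical in all 300 bases. No other members shared a window. The windows of these neighbours and of 3 other risen genes are given 5′ to 3′, with CCAAT and its reverse complement ATTGG in capitals.
Zfp955a (chr17:33255096-33255395, minus strand): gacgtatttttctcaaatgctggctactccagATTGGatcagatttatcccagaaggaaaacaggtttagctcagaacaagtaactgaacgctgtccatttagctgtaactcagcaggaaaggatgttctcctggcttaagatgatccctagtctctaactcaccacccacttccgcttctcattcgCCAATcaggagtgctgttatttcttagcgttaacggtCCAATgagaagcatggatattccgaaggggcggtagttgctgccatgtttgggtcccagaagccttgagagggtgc
Zfp955b (chr17:33289294-33289593, plus strand): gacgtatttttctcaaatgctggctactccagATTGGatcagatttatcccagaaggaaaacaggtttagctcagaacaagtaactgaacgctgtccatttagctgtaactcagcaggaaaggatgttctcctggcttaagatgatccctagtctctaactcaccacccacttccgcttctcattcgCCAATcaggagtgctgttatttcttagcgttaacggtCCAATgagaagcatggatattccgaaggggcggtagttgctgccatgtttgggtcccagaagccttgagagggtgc
Zfp37 (chr4:62208497-62208796, minus strand): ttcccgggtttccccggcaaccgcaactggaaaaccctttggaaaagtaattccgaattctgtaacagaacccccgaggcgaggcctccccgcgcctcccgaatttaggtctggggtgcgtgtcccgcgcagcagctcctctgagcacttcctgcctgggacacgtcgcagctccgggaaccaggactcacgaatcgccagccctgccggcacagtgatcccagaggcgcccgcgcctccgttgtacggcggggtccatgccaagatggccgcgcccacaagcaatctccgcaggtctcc
Zfp52 (chr17:21535289-21535588, plus strand): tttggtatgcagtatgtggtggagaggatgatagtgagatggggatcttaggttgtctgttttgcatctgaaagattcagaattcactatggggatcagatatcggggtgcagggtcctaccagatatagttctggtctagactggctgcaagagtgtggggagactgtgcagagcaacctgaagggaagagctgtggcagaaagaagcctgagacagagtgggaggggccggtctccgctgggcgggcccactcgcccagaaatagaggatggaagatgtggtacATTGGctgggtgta
Zfp809 (chr9:22225462-22225761, plus strand): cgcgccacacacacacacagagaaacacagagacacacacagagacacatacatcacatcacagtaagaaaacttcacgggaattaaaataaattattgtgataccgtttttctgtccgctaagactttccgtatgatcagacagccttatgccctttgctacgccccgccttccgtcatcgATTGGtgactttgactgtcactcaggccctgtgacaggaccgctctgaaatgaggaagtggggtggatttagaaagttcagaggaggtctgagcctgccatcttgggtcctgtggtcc

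The windows differed widely outside the identical neighbours. The dinucleotide CG occurred 27 times in the Zfp37 window, 11 times in that of Zfp809, 8 times in each Zfp955 window and 5 times in that of Zfp52, against a median of 17 over the 162 members and 7 over all 32851 windows of the table. The Zfp37 window (62208497 to 62208796) lies inside its GENCODE gene body (62189540 to 62231047) and not at the 5′ end. Its letters therefore describe a start within the gene. CCAAT was present on either strand in 6 of the 7 risen genes, Zfp37 being the exception, in 43.8% of members and in 37.4% of all windows. The GC box GGGCGG was present in 3 risen genes (Zfp52, Zfp955a and Zfp955b), in 50.6% of members and in 35.7% of all windows. The ETS core CCGGAAG stood in Zfp110 and Zfp958, in 22.2% of members and in 8.86% of all windows, and the YY1 core AAGATGGC in Zfp37 and Zfp809, in 6.79% of members and in 2.75% of all windows. None of the 7 windows held the E-box CAGCTG (19.1% of members, 16.3% of all windows) or the TATA box TATAAA (6.79% and 13.6%). Both strands were searched for every motif, and no matches of different motifs overlapped in the 7 windows. These matches describe letters and not binding.

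Zfp37 (ENSMUSG00000028389, chromosome 4, 62189540 to 62231047, minus strand, GRCm38) changed most. It encodes 12 fingers and is known from mouse testis and neurons. It had 66, 117 and 109 counts in KO libraries, against 20, 10 and 19 in control libraries. Scaled by library size these were 17.5, 24.0 and 21.3 CPM in KO libraries and 4.005, 2.09 and 3.51 CPM in control libraries. Every KO library lay far above every control library. The log2 fold change was 2.70 (SE 0.24, edgeR adjusted p = 7.226e-06), and none of its 50-base words occurred in transcripts of other genes.

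The neighbours Zfp955a (ENSMUSG00000094441, chromosome 17, 33239718 to 33255145, minus strand) and Zfp955b (ENSMUSG00000096910, chromosome 17, 33289544 to 33307241, plus strand) rose together. Zfp955a had 21.0, 20.7 and 23.1 CPM in KO libraries, against 8.21, 7.93 and 4.80 CPM in control libraries. Zfp955b had 19.95, 24.9 and 20.7 CPM in KO libraries, against 8.21, 10.0 and 9.24 CPM in control libraries. For both genes every KO library was above every control library, by log2 fold changes of 1.64 (SE 0.21, edgeR adjusted p = 2.924e-04) and 1.26 (SE 0.18, edgeR adjusted p = 7.400e-04). Both encode proteins with 10 fingers and the KRAB pattern. They shared 51.8% (Zfp955a) and 31.4% (Zfp955b) of their words with other genes, mostly with each other, which makes it uncertain how their reads were split. Their sum does not depend on that split. It was 41.0, 45.6 and 43.8 CPM in KO libraries, against 16.4, 17.9 and 14.04 CPM in control libraries, or 43.4 ± 2.33 and 16.1 ± 1.97 CPM (mean ± SD, n = 3 each).

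Zfp52 (ENSMUSG00000051341, chromosome 17, 21535539 to 21562601, plus strand) is a KRAB gene with 14 fingers. It had 33.8, 35.7 and 33.6 CPM in KO libraries, against 19.0, 18.8 and 12.8 CPM in control libraries. The KO libraries lay close together and all above the controls. The log2 fold change was 1.03 (SE 0.16, edgeR adjusted p = 0.00204), and 0.9% of its words were shared.

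Zfp809 (ENSMUSG00000057982, chromosome 9, 22225714 to 22243354, plus strand) is the member whose role is best known among the risen genes. In mouse embryonic stem cells its product recognises the primer binding site of retroviruses that use proline tRNA and recruits TRIM28 there. It had 15.4, 16.6 and 20.7 CPM in KO libraries, against 9.81, 6.26 and 8.68 CPM in control libraries, which did not overlap. The log2 fold change was 1.09 (SE 0.21, edgeR adjusted p = 0.0085), and no word was shared. The call ended with DESeq2 (adjusted p = 0.111), without KO library 3 (edgeR adjusted p = 0.06) and without control library 2 (edgeR adjusted p = 0.0567).

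Zfp958 (ENSMUSG00000058748, chromosome 8, 4613167 to 4630231, plus strand) is a KRAB gene with 13 fingers. It had 11.4, 14.99 and 18.4 CPM in KO libraries, against 3.60, 7.72 and 5.91 CPM in control libraries. Its groups did not overlap, although both spread widely. The log2 fold change was 1.39 (SE 0.27, edgeR adjusted p = 0.0108), and the call ended with DESeq2 (adjusted p = 0.0711), without KO library 2 (edgeR adjusted p = 0.0538) and without KO library 3 (edgeR adjusted p = 0.0647).

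Zfp110 (ENSMUSG00000058638, chromosome 7, 12834761 to 12850577, plus strand), also called Nrif, encodes a protein that binds the neurotrophin receptor p75 and was the single risen member with a SCAN pattern beside its KRAB pattern. It had 32.5, 39.6 and 34.4 CPM in KO libraries, against 19.4, 21.1 and 19.95 CPM in control libraries. The control libraries lay within 1.66 CPM of each other and below every KO library. The log2 fold change was 0.82 (SE 0.14, edgeR adjusted p = 0.00387), and DESeq2 did not call it (adjusted p = 0.0563).

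**Figure D1:**
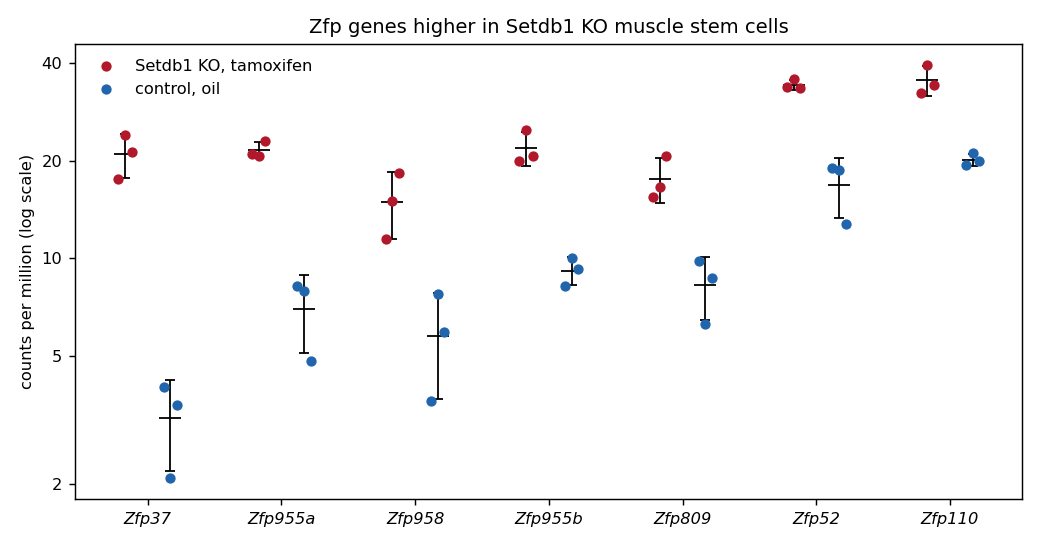
Level of the 7 risen Zfp genes in each library, in CPM on a log scale, with KO libraries (red) left of control libraries (blue). Points are libraries and black bars are the mean ± SD (n = 3). No KO library of any of these genes falls at or below a control library, and Zfp37 is furthest apart, at 21.0 ± 3.25 CPM in KO libraries and 3.20 ± 1.00 CPM in control libraries.

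As a whole the Zfp genes stayed near their control level. The median log2 fold change over the 202 members was -0.03, with a middle 50% of members from -0.22 to 0.21, and 93 were above 0, or 46% of members against 50.9% of all genes tested. Over all genes tested the median was 0.01, with a middle 50% from -0.19 to 0.25. The groups did not overlap in 23 members that were higher and 21 that were lower in KO cells, where all genes tested gave 12.8% and 11.5%, and the members 11.4% and 10.4%. Summed over the members, KO libraries held 3610, 3775 and 3839 CPM, against 4097, 3980 and 3620 CPM in control libraries, and these ranges overlapped. Variation within a group was close to that of other genes. The median coefficient of variation of a member was 16.2% in KO libraries and 14.9% in control libraries, and that of all genes tested was 13.9% and 14.1%.

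Most members were expressed at a low level. The median was 9.94 CPM and the highest 230 CPM. Corrected for exon length, the median was 2.08 CPM per kb of exon, against 4.12 over all genes tested. In simulated data for the KO against control comparison, the edgeR test recovered 57.6% of 2-fold and 14.9% of 1.5-fold changes, so most changes of 1.5-fold would be missed. The changed genes were drawn from all genes tested, whose median was 17.6 CPM, so the rates are not those of the members alone. The 54 members at 20 CPM or more leaned downward. Of these, 2 were called higher, 11 had a positive fold change, and the median was -0.17. Among all 5182 genes at this level 2218 had a positive fold change, with a median of -0.04. The 119 members between 5 and 20 CPM held the other 5 called genes and had a median of 0.03, against 0.05 for the 4033 genes tested at that level.

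**Figure D2:**
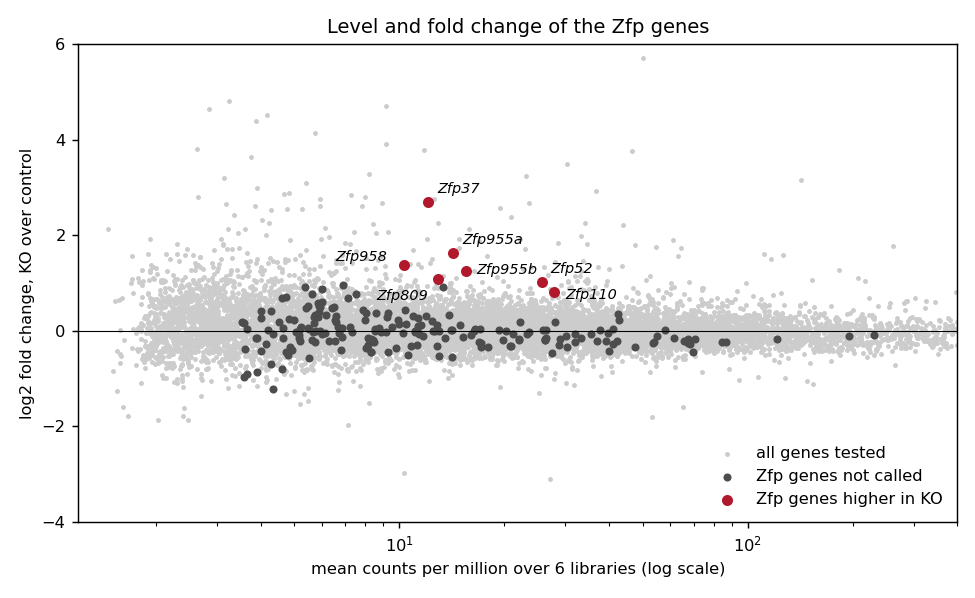
Log2 fold change (KO over control) against the mean CPM over 6 libraries on a log scale, for all genes tested (light grey) and the 202 Zfp genes (dark grey, or red where higher in KO). The red points lie between 10 and 30 CPM. The axes leave out 188 genes, none of them a Zfp gene.

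Members with the KRAB pattern held most of the risen genes. The conserved residues of the KRAB A box were searched in the proteins translated from GENCODE transcripts. They were found in 69 of 200 members with a protein, of which 6 were higher in KO cells and none lower, with a median log2 fold change of 0.05 and 41 above 0. Of the 131 members without the pattern, 1 was higher (Zfp37) and none lower, with a median of -0.06 and 50 above 0. A looser pattern, added because the first missed known KRAB genes, was found in 94 members, again 6 of them higher (median 0.06), and left 106 without it (1 higher, median -0.08). That 1 was again Zfp37. A protein without a match may still hold a KRAB domain, so Zfp37 lacks the patterns and is not shown to lack the domain. The difference between these classes was not tested, and 2.22% of all genes tested were higher in KO cells. The 6 risen genes with the pattern include Zfp955a and Zfp955b, whose split of reads is uncertain. They also include Zfp809, Zfp958 and Zfp110, which DESeq2 did not call. Members with the first pattern were also expressed at a lower level, with a median of 1.62 CPM per kb of exon against 2.35 in members without it. Of 7 members with the SCAN pattern, 1 was higher. By number of fingers, 0 of 35 members with up to 4 fingers, 2 of 55 with 5 to 9, 5 of 68 with 10 to 14 and 0 of 42 with 15 or more were called.

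By chromosome, 43 members lay on chromosome 7, 25 on chromosome 17, 17 on chromosome 8, 15 on chromosome 13 and 13 on chromosome 9. Chromosome 17 held 3 of the 7 risen genes, and chromosomes 4, 7, 8 and 9 held 1 each. The 3 include the neighbours Zfp955a and Zfp955b, whose split of reads is uncertain. Of all genes tested, 17 of 522 on chromosome 17 were higher in KO cells. The same held for 19 of 682 on chromosome 4, 17 of 797 on 7, 10 of 601 on 8 and 21 of 646 on 9. On chromosome 17 the members had a median log2 fold change of 0.18, with 17 of 25 above 0, while all 522 genes tested there had a median of 0.03. Summed over its 25 members, KO libraries held 339, 385 and 395 CPM, against 339, 350 and 284 CPM in control libraries, and the groups overlapped. Chromosome 13 had a similar median of 0.17 with no member called, against -0.05 over all genes tested there. Chromosome 7, with the most members, had a median of -0.01 and 20 of 43 above 0. These chromosome 7 members summed to 562, 565 and 547 CPM in KO libraries, against 574, 568 and 521 CPM in control libraries.

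**Figure D3:**
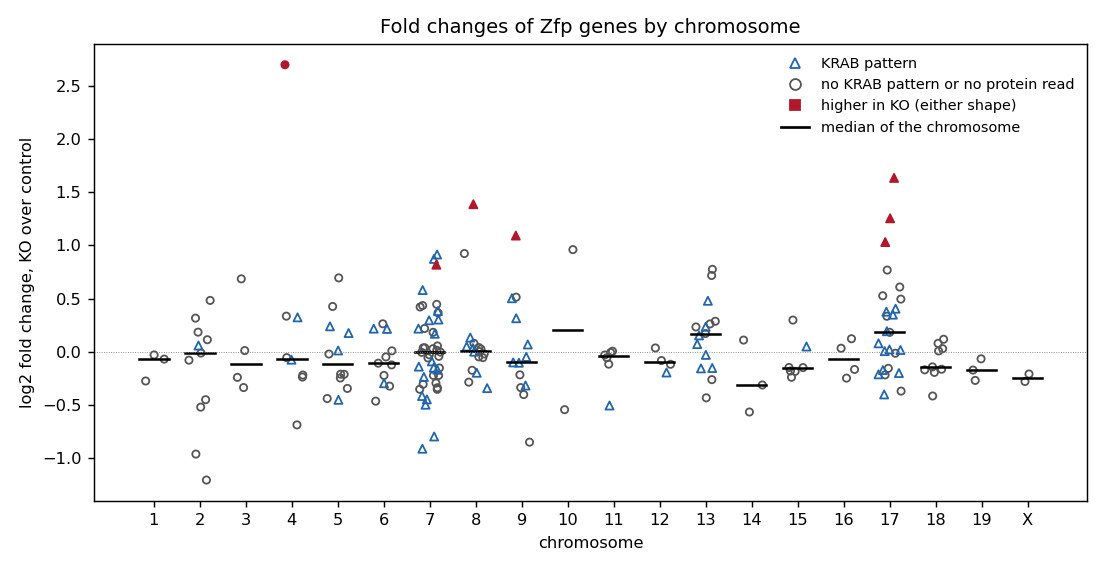
Log2 fold change (KO over control) of each of the 202 Zfp genes by chromosome. Triangles are members with the KRAB pattern, circles the others, filled red symbols the 7 genes higher in KO, and black lines the chromosome medians. The 3 risen genes of chromosome 17 stand above the other 22 members there.

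Members were joined into runs where neighbouring genes lay at most 500 kb apart, with at least 3 genes to a run. This gave 14 runs with 77 members, of which 4 were higher and none lower (median log2 fold change 0.05), and left 125 members outside, of which 3 were higher and none lower (median -0.07). The risen genes in runs were Zfp52, Zfp955a, Zfp955b and Zfp110, and the split of reads between Zfp955a and Zfp955b is uncertain. The other 11 runs held no called member. Over all genes tested 2.22% were higher in KO cells, so a run of few genes would often hold none. Zfp37, Zfp809 and Zfp958 lay outside the runs.

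The first run on chromosome 17 held 12 genes over 1.86 Mb, all with the looser KRAB pattern. Zfp52 was its single called member. The genes beside it were not called, with log2 fold changes of 0.77 (SE 0.30) for Zfp53 and 0.49 (SE 0.26) for Zfp51 on one side and 0.35 (SE 0.17) for Zfp948 on the other. Zfp53 was at 7.18, 8.83 and 5.28 CPM in KO libraries, against 3.40, 4.80 and 4.25 CPM in control libraries. Its groups and those of Zfp51 did not overlap, whereas those of Zfp948 did. Farther along, none of 7 genes was called. Zfp945 had 0.61 (SE 0.32), Zfp758 0.40 (SE 0.31) and Zfp944 0.19 (SE 0.34), while Zfp229, Zfp942 and Zfp943 lay between 0.01 and 0.08 and Zfp946 at -0.20 (SE 0.28). Zfp160 at the start of the run had -0.40 (SE 0.25). Over the run, 10 of 12 genes had a positive log2 fold change, with a median of 0.27. Summed over the run, KO libraries held 124, 157 and 157 CPM, against 117, 114 and 103 CPM in control libraries. These sums include the called Zfp52, with 33.8, 35.7 and 33.6 CPM in KO libraries and 19.0, 18.8 and 12.8 CPM in control libraries. In the rest of the run the groups overlapped.

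The second run on chromosome 17 held 7 genes over 0.63 Mb, and the change was uneven within it. Beside Zfp955a and Zfp955b, Zfp81 lies on the opposite strand to Zfp955b, with 22.1 kb between the nearest ends of these genes, and was at 14.1 ± 2.38 CPM in KO libraries and 14.1 ± 1.65 CPM in control libraries (log2 fold change 0.02, SE 0.19). Zfp101, next in line, had 0.38 (SE 0.23), and Zfp871, Zfp799 and Zfp472 on the other side had -0.17, -0.37 and -0.21, none of them called. The run on chromosome 7 with Zfp110 held Zfp329 (0.42, SE 0.32) and Zfp606 (-0.24, SE 0.30), also not called.

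**Figure D4:**
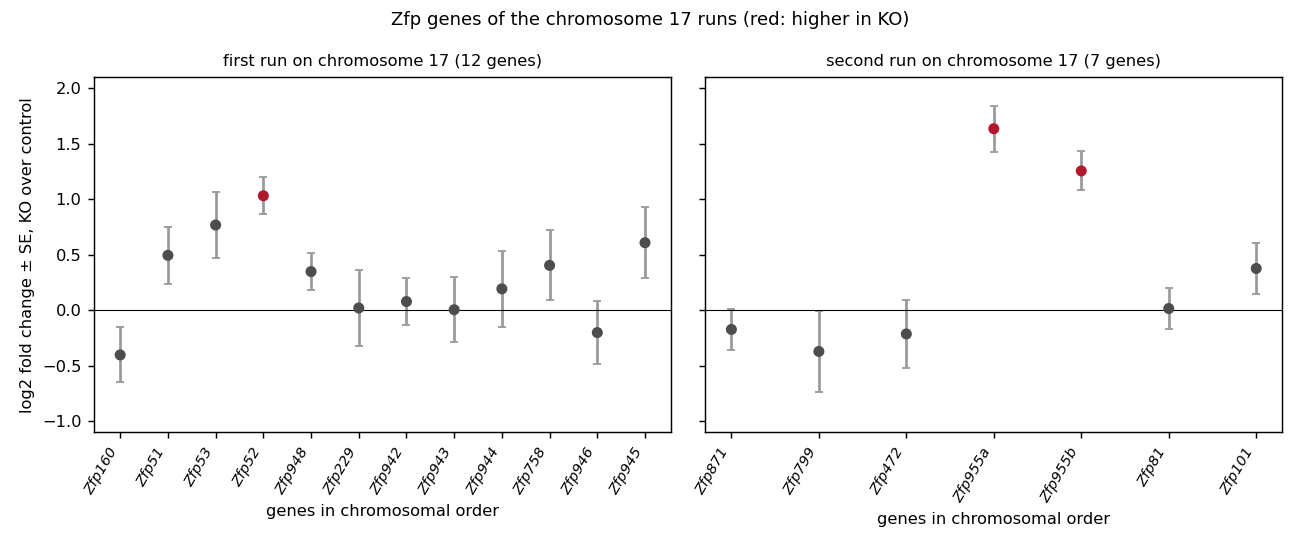
Log2 fold change ± SE (KO over control) of the Zfp genes in the 2 runs of chromosome 17, in chromosomal order. Red points are genes higher in KO. In the second run Zfp955a and Zfp955b stand at 1.64 and 1.26 while Zfp81 beside them is at 0.02.

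The other genes around the 7 risen members were not called either. Taking the 2 nearest tested genes on each side, 24 different neighbours were found besides the risen genes themselves. Of these 24, 0 passed in edgeR, where 2.83% of all genes tested did, so the count does not set the neighbours apart. Nearest did not always mean close, as Gm1840 lay 1010 kb from Zfp958, and Inip and Snx30 lay still farther from Zfp37. Zfp599, 4.08 kb from Zfp809, had a log2 fold change of 0.01 (SE 0.44), and Zfp810, 33.4 kb away, had 1.42 (SE 0.44, edgeR adjusted p = 0.106). Zfp810 was at 3.80 ± 1.59 CPM in KO libraries and 1.38 ± 0.12 CPM in control libraries, and its counts were too few for membership. Beside Zfp37, Slc31a2 was at 0.72 (SE 0.40) and Fkbp15 at 0.03 (SE 0.17) on the log2 scale. Transcripts that overlap the risen genes were few, with 12 counts over all libraries for Gm48478 at Zfp809, 7 for 9330136K24Rik at Zfp52 and 1 for Zfp422-ps at Zfp955b.

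Among members that did not pass, the largest positive fold changes at a mean of at least 5 CPM belonged to Zfp365, Zfp469, Zfp954, Zfp667 and Zfp729b. Zfp365, whose product binds the scaffold protein DISC1, had 10.6, 9.24 and 7.43 CPM in KO libraries, against 4.41, 6.26 and 3.33 CPM in control libraries (log2 fold change 0.96, SE 0.29, edgeR adjusted p = 0.0942). Its groups did not overlap. Zfp469, named like a human gene mutated in brittle cornea syndrome and annotated here as a noncoding RNA that overlaps Gm20388 on the same strand, had 18.6, 15.8 and 18.0 CPM in KO libraries, against 14.8, 6.89 and 5.91 CPM in control libraries. Control library 1 lay near the KO libraries, and without it the gene was called (log2 fold change 1.44, edgeR adjusted p = 0.00216). It was also called with all libraries and no low-count filter (0.88, edgeR adjusted p = 0.00441). With all libraries and the filter the values were 0.92 (SE 0.30) and an edgeR adjusted p of 0.152, and over the 15 alternatives the adjusted p ran from 0.00216 to 0.453.

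The largest negative fold changes at that level, none of them called, were in Zfp395, Zfp280b, Zfp770, Zfp715 and Zfp800, from -0.57 to -0.47. Zfp280b had 11.2, 12.9 and 10.6 CPM in KO libraries, against 16.02, 16.5 and 18.1 CPM in control libraries (edgeR adjusted p = 0.112). These groups did not overlap. The lowest fold change of all members, in a gene below that level and singled out after its values were seen, was that of Zfp966 on chromosome 2. It had 9, 13 and 14 counts in KO libraries, against 34, 28 and 30 in control libraries (log2 fold change -1.21, SE 0.31, edgeR adjusted p = 0.0517). It was called lower with DESeq2 size factors in edgeR and with structural RNA genes removed.

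Zfp966 lies among Zfp genes with shared words at the end of chromosome 2, and 90.0% of its words occur in other genes. Zfp971, farther along, shares 51.1% of its words with all other genes and 28.2% with Zfp968, the gene most like it. Like the other genes of this paragraph it was chosen after its values were seen. It had 10, 14 and 9 counts in KO libraries, against 29, 18 and 25 in control libraries (log2 fold change -0.96, SE 0.36, edgeR adjusted p = 0.181). Zfp965, which had too few counts to be a member or to be tested, had 0, 0 and 0 counts in KO libraries, against 14, 11 and 5 in control libraries. Zfp973 in the same group went the other way, with 11, 24 and 20 counts in KO libraries, against 12, 4 and 14 in control libraries (log2 fold change 1.00, SE 0.43, edgeR adjusted p = 0.242). Words shared between these genes leave the source of their reads uncertain.

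Members with known roles were examined in 3 lists. Of 9 listed genes that act in imprinting or in the silencing of retroelements, 5 were members. Zfp809 was higher, none was lower and 4 were not called, with a median of -0.05 over the 5. Zfp445, which protects imprints, was at 39.1 ± 2.95 CPM in KO libraries and 40.5 ± 6.59 CPM in control libraries. Zfp568, a repressor of a placental promoter of Igf2, was at 58.2 ± 11.5 CPM in KO libraries and 64.4 ± 7.47 CPM in control libraries. The log2 fold change was -0.21 (SE 0.34) in Zfp932 and 0.03 (SE 0.29) in Zfp961.

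None of 10 tested genes that act on RNA, ribosomes or the spindle, 9 of them members, was called (median -0.14). Among all genes tested 2.83% were called, so a list this short would often hold none. Zfp207, a protein of spindle assembly, was at 188 ± 20.8 CPM in KO libraries and 203 ± 16.7 CPM in control libraries. Per kb of exon it was the highest member, with a mean of 29.4 CPM per kb. Zfp106, an RNA-binding protein needed for motor neurons and muscle in mice, was at 224 ± 14.3 CPM in KO libraries and 237 ± 38.8 CPM in control libraries. Zfp638 (NP220), a protein that silences unintegrated retroviral DNA, was at 77.8 ± 10.4 CPM in KO libraries and 91.0 ± 6.29 CPM in control libraries (log2 fold change -0.22, SE 0.12). Zfp36, which degrades AU-rich transcripts and is known to restrain Myod1 in quiescent muscle stem cells, was at 46.0 ± 2.45 CPM in KO libraries and 39.6 ± 6.06 CPM in control libraries (log2 fold change 0.22, SE 0.14). Its groups overlapped. The ribosome collision ligase Zfp598 had a log2 fold change of -0.16 (SE 0.18).

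None of 11 general or mesenchymal transcription factors was called (median -0.06), and their log2 fold changes ran from -0.24 for Zfp292 to 0.32 for Zfp64. With 2.83% of all genes tested called, this short list too would often hold none. Zfp410, the activator of Chd4, was at 15.5 ± 2.22 CPM in KO libraries and 16.6 ± 0.99 CPM in control libraries. Zfp148 was at 63.6 ± 7.70 CPM in KO libraries and 71.6 ± 3.80 CPM in control libraries. Of the other abundant members, Zfp91 was at 114 ± 5.51 CPM in KO libraries and 129 ± 15 CPM in control libraries. Zfp706 was at 79.7 ± 6.34 CPM in KO libraries and 94.2 ± 0.33 CPM in control libraries, with groups that did not overlap (log2 fold change -0.24, SE 0.11, edgeR adjusted p = 0.271).

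A separate list held proteins that KRAB zinc fingers work through, together with other proteins of silent chromatin and DNA methylation. Of 29 tested genes of this mixed list, 3 were higher, 1 was lower and 25 were not called, with a median log2 fold change of -0.18 and 8 above 0. The lower gene was Setdb1 itself, and the higher ones were Resf1, Atf7ip and Morc3, with log2 fold changes of 2.25, 1.60 and 1.01. Trim28, which binds the KRAB domain, was at 152, 146 and 150 CPM in KO libraries, against 185, 173 and 166 CPM in control libraries. Every KO library was below every control library, but the gene was not called (log2 fold change -0.22, SE 0.11, edgeR adjusted p = 0.312). Cbx1, which encodes an HP1 protein and was chosen after its values were seen, had -0.48 (SE 0.13, edgeR adjusted p = 0.0657). Of 69 tested genes of other zinc finger families (Zbtb, Zkscan, Zscan, Klf and others), 1 was higher, 1 was lower and 67 were not called, with a median of -0.07. Zbtb38, which binds methylated DNA, was at 59.2 ± 2.37 CPM in KO libraries and 38.6 ± 5.06 CPM in control libraries. Zik1, the lower gene, was at 4.77 ± 0.61 CPM in KO libraries and 10.7 ± 2.75 CPM in control libraries.

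Summed neutrophil markers were at 2.39, 933 and 306 CPM in KO libraries, against 3.00, 2.71 and 2295 CPM in control libraries. All 7 risen genes were called without control library 3, 6 without KO library 2 (Zfp958 was lost) and 5 without KO library 3 (Zfp809 and Zfp958 were lost). Summed fibroblast markers were at 1183, 1206 and 1748 CPM in KO libraries, against 1328, 570 and 948 CPM in control libraries, and overlapped. All 6 fibroblast markers that were tested had a positive log2 fold change in KO cells, with a median of 0.54, and none was called. The groups did not overlap in 2 of them, Dpt and Col3a1. Among all genes tested, 12.8% were higher in KO cells without overlap. The part of neutrophils and fibroblasts in the changes of the risen genes was not tested.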

How the data were processed

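Stranded TruSeq libraries from 400 ng of RNA without ribosomal RNA were read as pairs of 75 bases, per the labels' protocols, which also name a SMARTER kit, so the kit is not settled. The build GRCm38 and the tools STAR, Salmon and DESeq2 (version 1.34.0) are named in the submitters' processing notes. The counting tool, annotation release and strand setting are not stated there. The authors deposited raw counts per Ensembl gene, whole numbers for 6 libraries, and 55141 of 55487 IDs were given a symbol.

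Counts were tested with edgeR 4.0.16 in R 4.3.3 (quasi-likelihood, robust, TMM factors, default low-count filter), two-sided, at an adjusted p of 0.05 over 11224 genes. CPM were scaled with the TMM factors, fold changes are edgeR's fitted log2 values, and each SE is the size of the fold change divided by the square root of its F value. DESeq2 1.42.0, limma-voom (limma 3.58.1), other factors and filters, a replicate block, removal of structural RNA genes and each library left out were alternatives. The procedure was tested on simulated data. Coordinates, exon lengths and proteins came from GENCODE M21 (GRCm38). Shared words are the percent of a gene's 50-base transcript words found in other genes. Counts without molecular identifiers may hold duplicates, and no 2 libraries of a group were copies. Python 3.11.15, pandas 2.3.3 and matplotlib 3.10.9 were used.

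The genes eligible to be named were all called members, the 5 largest changes in each direction among members not called with at least 5 CPM, the 5 highest members, genes at the summed count limit, members of runs with a called gene and of 3 lists of known roles, with Setdb1 and Trim28. The text gives a part of the lists of known roles by their counts. Outside this rule, neighbours of called members were named, as were called genes of the other lists and, after their values were seen, Cbx1 and Zfp966, Zfp971, Zfp965 and Zfp973. The members and lists were chosen with earlier results of these data known. The result of 1 marker list is not reported here.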

Additional observations from a re-analysis of the deposited data

How the results depend on the processing

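The number of members higher in KO cells was 7 under upper quartile factors, DESeq2 size factors, library totals alone, a minimum of 1 CPM in 3 libraries, limma-voom, mitochondrial and structural RNA genes left out, and summed count limits of 50 or 200, and 8 with no low-count filter, the eighth being Zfp469. It was 4 with the DESeq2 Wald test. Leaving out 1 library gave 5 to 8 higher and 0 to 0 lower. The number lower was 1 with DESeq2 size factors within edgeR and 1 with mitochondrial and structural RNA genes removed (Zfp966 in both), and 0 otherwise. Zfp37, Zfp52, Zfp955a and Zfp955b were called under all 15 alternatives. Without KO library 3 the calls of Zfp809 and Zfp958 ended, as given with these genes, and the cause was not tested. With the replicate number as a block, 7 members were higher and 0 lower. Same-numbered libraries had correlations of 0.142, -0.093 and -0.062 in their deviations from the group means. Of the 3 KO libraries, 2 correlated best with another number. These values gave no clear sign that the numbers pair the libraries, but with 3 libraries in a group they cannot exclude a pairing. The runs held 64 members with a gap of 250 kb and 87 with 1000 kb, against 77. Depth limits these results, as a member at the median level rests on 286 counts over 6 libraries.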
